A study of Mus musculus with 4 samples.

Results

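The 10 genes described here encode the cytosolic and mitochondrial chaperones most often used as a readout of heat shock factor 1 (HSF1): Hspa1a, Hspa1b, Hspa8, Hsp90aa1, Hsp90ab1, Hsph1, Dnaja1, Dnajb1, Hspd1 and Hspe1. They were taken by symbol from the 35275 genes of the read count table, and each symbol matched 1 row. HSF1 is held inactive by chaperones in unstressed cells, and when unfolded proteins occupy these chaperones it forms trimers, binds heat shock elements made of repeated nGAAn units and activates the chaperone genes. HSP70 proteins bind exposed hydrophobic stretches of a client, J-domain proteins deliver the client and start ATP hydrolysis, nucleotide exchange factors release it, HSP90 completes the folding of kinases and receptors, and the HSP60 barrel with its HSP10 lid folds proteins in the mitochondrial matrix. In the liver these genes are known for high basal expression of the constitutive forms and for strong induction of Hspa1a and Hspa1b by heat and other proteotoxic stress.

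The livers came from female mice of 26 weeks of age in 4 groups, named VS (vehicle, sedentary), VI (vehicle, interval training, IT), FS (AApoAII fibril, sedentary) and FI (AApoAII fibril, IT). Mice of every group carried the amyloidogenic Apoa2c allele. The sample labels give the strain as AKR/J with an Apoa2c congenic genotype, whereas the study's methods name R1.P1-Apoa2c on a SAMR1 background. FS and FI mice had received AApoAII fibrils intravenously before the training period, VS and VI mice buffer alone, and livers were taken after the 16-week training period, in which VI and FI mice alternated slow and fast running on a treadmill. Liver tissue of 4 mice was pooled per group before RNA extraction, so that 16 mice gave 4 libraries, 1 per group, and no difference between groups has a replicate error.

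Total counts lay between 23442935 in VS and 28814802 in FS. Counts were scaled with edgeR's TMM method and expressed as CPM (counts scaled to a library of 1e+06). Levels have 95% exact Poisson intervals, and log2 ratios have 95% exact conditional binomial intervals in parentheses. Both cover counting error only, since 1 pooled library per group holds no spread between mice. Reads that carry no molecular identifier can be copies of 1 molecule, so the intervals can be too narrow even for counting error. The 8 hepatocyte markers, among them Alb and Ttr, had counts in every library and summed to between 164161 CPM in VS and 177134 CPM in FI. The library that stood apart was VS, where 13 skeletal muscle genes summed to 78.5 CPM (VI 10.2 CPM, FS 1.12 CPM, FI 1.07 CPM). The 9 Kupffer cell markers summed to 300.2 (VS), 363 (VI), 463 (FS) and 462 CPM (FI), and 7 erythroid genes to 361, 284, 253 and 339 CPM in that order. The erythroid sum was thus highest in VS and lowest in FS, as were Hspa8, Hsp90ab1, Hspd1 and Hspe1, and all 4 erythroid genes that reached 1 CPM were lower in VI/VS (median −0.44) and in FS/VS (median −0.65). The part of muscle, Kupffer cell and erythroid transcripts in the values below was not tested. In pooled tissue, fewer cells of a type and less RNA per cell cannot be told apart.

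Hspa1b and Hspa1a encode nearly the same inducible HSP70 chaperone from neighbouring genes on chromosome 17. Their upstream sequences are shown because Hspa1b had the widest range of the 9 genes that reached 1 CPM, while its copy was nearly uncounted. The 250 bases before each RefSeq transcription start (build GRCm38.p6, minus strand, Hspa1b at chr17:34959239-34959488 and Hspa1a at chr17:34972157-34972406) differed at 3 positions, and capitals mark a match to a 2-unit heat shock element (GAANNTTC or TTCNNGAA, both of which read the same on either strand).
Hspa1b: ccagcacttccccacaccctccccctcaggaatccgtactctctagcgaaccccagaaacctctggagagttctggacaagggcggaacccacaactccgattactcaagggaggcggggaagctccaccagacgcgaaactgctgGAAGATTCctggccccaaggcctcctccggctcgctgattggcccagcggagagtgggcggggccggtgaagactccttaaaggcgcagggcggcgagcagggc
Hspa1a: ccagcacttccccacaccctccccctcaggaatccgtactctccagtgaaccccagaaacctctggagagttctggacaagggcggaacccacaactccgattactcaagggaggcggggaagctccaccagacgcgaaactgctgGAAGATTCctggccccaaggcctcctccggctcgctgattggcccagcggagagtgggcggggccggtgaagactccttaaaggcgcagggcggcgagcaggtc
The match lies 97 to 104 bases upstream of either start.

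The mitochondrial pair Hspe1 and Hspd1 is transcribed in opposite directions from a shared region of chromosome 1. This region is shown because a single run of heat shock units lies upstream of a RefSeq start of each gene. By the gene ends of the read count table, the run lies within Hspd1 (chr1:55077835-55088243, minus strand) and outside Hspe1. Capitals again mark matches, here an 18-base run that holds the 3-unit element (a 2-unit element followed by 2 further bases and 1 more unit, searched on both strands) and lies 72 to 89 bases upstream of the Hspe1 start and 127 to 144 bases upstream of a Hspd1 start. The lines for both genes are the same bases, chr1:55088053-55088082, read on the plus and the minus strand.
Hspe1: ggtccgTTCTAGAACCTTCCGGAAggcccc
Hspd1: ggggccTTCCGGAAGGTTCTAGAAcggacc
Dnaja1 (chr4:40722333-40722362, plus strand) had a 2-unit match 117 to 124 bases upstream of a RefSeq start. Hsph1 (chr5:149636351-149636380 and chr5:149636279-149636308, minus strand) had a 2-unit match upstream and a 3-unit match just downstream of its RefSeq starts. By the gene ends of the read count table, these matches lie within the genes, as Dnaja1 begins at chr4:40722150 and Hsph1 at chr5:149636376.
Dnaja1: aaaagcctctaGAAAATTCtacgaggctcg
Hsph1, 2 units: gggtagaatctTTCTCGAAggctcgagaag
Hsph1, 3 units: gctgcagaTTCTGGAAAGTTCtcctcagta
Of the 10 genes, 7 were matched in the RefSeq promoter table, whose windows run from 250 bases before to 50 bases after a start. A 3-unit element was found for 3 of the 7 genes (Hspd1, Hspe1 and Hsph1) and for 0.662% of the 27025 genes in the table. A 2-unit element, which every 3-unit element contains, was found for 6 of the 7, all but Dnajb1, and for 17.0% of genes in the table. These matches describe letters in a window and not binding.

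Per gene length, the constitutive chaperones dominated. FPKM values made by the authors (counts per kilobase of gene length and per 1e+06 counts) put Hsp90ab1, the constitutive cytosolic HSP90, first with 237 to 382 FPKM over the 4 libraries, and Hspa8, the constitutive HSP70, second with 228 to 368 FPKM. Their ranges overlapped and Hspa8 was the higher of both in VI, so the order of this pair is not fixed. Hspd1 (HSP60, 170.0 to 239 FPKM) and Hspe1 (HSP10, 158 to 244 FPKM) followed with levels close to each other. Hsp90aa1, the stress-inducible HSP90, ranged from 23.5 to 58.8 FPKM around the narrower range of the J-domain gene Dnaja1, 28.9 to 41.4 FPKM. Dnajb1 (10.1 to 16.8 FPKM), Hsph1 (7.14 to 14.0 FPKM) and Hspa1b (2.69 to 17.8 FPKM) overlapped each other, and Hspa1a stood last with at most 0.129 FPKM. The plot of levels per gene length shows these tiers.

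**Figure D1:**
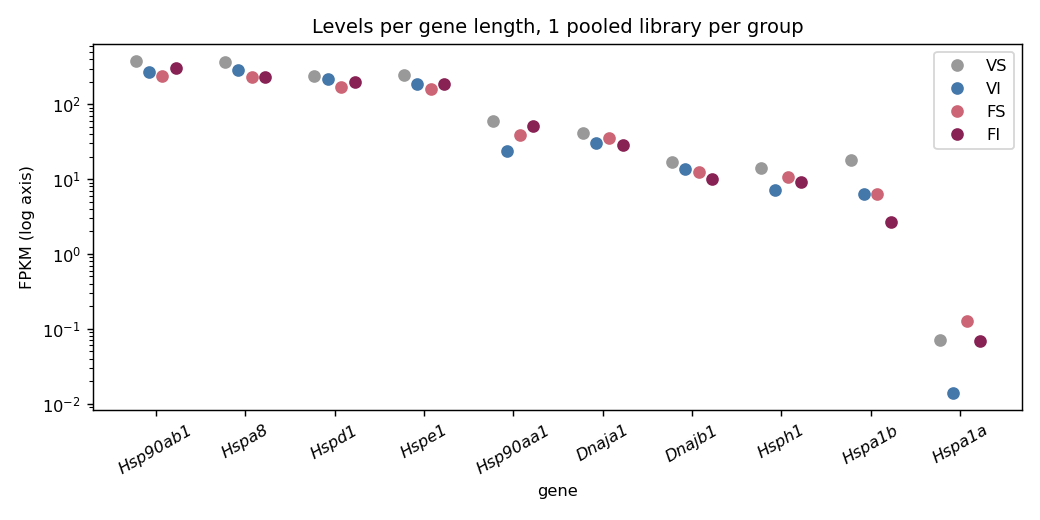
FPKM (log axis) of each of the 10 genes in the VS, VI, FS and FI libraries, 1 point per library, ordered by the mean over libraries. The tiers run from 237 to 382 FPKM for Hsp90ab1 to at most 0.129 FPKM for Hspa1a, and Hspa1b and Hsp90aa1 have the widest spread of the genes above 1 FPKM.

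For the 9 genes that reached 1 CPM in some library, VS was the highest library every time. Of the 12180 genes with such a level, 26.5% were highest in VS. The lowest library was FS for 4 of the 9 (Hspa8, Hsp90ab1, Hspd1 and Hspe1), FI for 3 (Hspa1b, Dnaja1 and Dnajb1) and VI for 2 (Hsp90aa1 and Hsph1). The 10 genes together took 3494 (VS), 2628 (VI), 2246 (FS) and 2623 CPM (FI), and most of this sum came from Hspa8, Hsp90ab1 and Hspd1. The muscle transcripts were also highest in VS, and their part in these levels was not tested. Because VI/VS and FS/VS both have VS as their reference, a gene that is high in VS is lower in both comparisons, whereas FI/FS and FI/VI do not involve it.

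**Figure D2:**
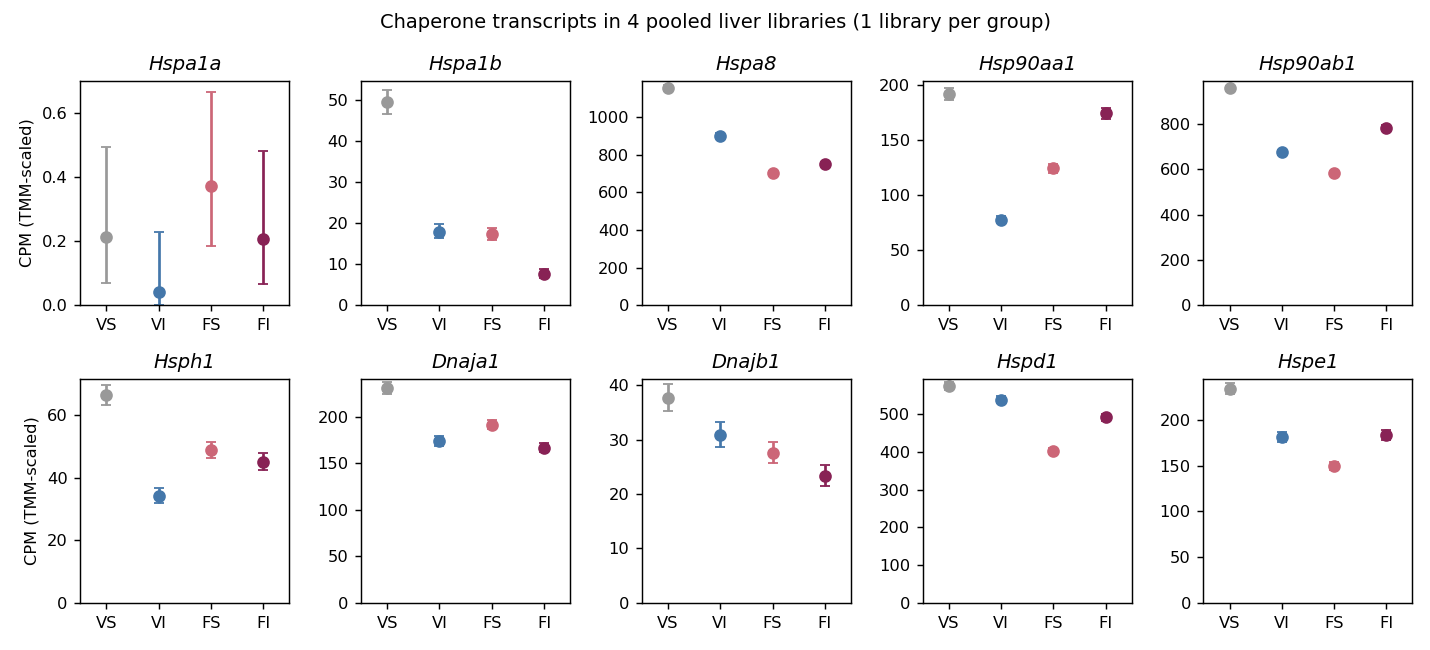
CPM (TMM-scaled) of each of the 10 genes in the VS, VI, FS and FI libraries, with 95% exact Poisson intervals for counting error and 1 pooled library per group. VS is the highest point in all panels but that of Hspa1a, and Hspa1b steps down from 49.5 CPM in VS to 7.73 CPM in FI.

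Hspa1b (ENSMUSG00000090877, chr17:34956436-34959238), the inducible HSP70 gene, had 49.5 (VS), 17.9 (VI), 17.3 (FS) and 7.73 CPM (FI), from 1169, 437, 512 and 187 counts. VS stood far above the rest, VI and FS were alike, and FI was lower again, with 6.4 times as much in VS as in FI. With IT, the log2 ratio was −1.46 (−1.63 to −1.30) in vehicle livers and −1.16 (−1.42 to −0.92) in fibril livers. With fibrils, it was −1.51 (−1.67 to −1.36) in sedentary and −1.21 (−1.47 to −0.96) in trained livers. Hspa1b was thus the only one of the 9 genes that was beyond 2-fold in all 4 comparisons, and lower in each. Its ratio ranked 88 from the lowest of 12180 genes in VI/VS, 198 in FI/FS, 91 in FS/VS and 148 in FI/VI. The study, by real-time qPCR in livers of individual mice, reports no change of Hspa1b mRNA with IT or with amyloidosis, unlike these pooled counts. The cause of this discrepancy was not tested.

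Hspa1a (ENSMUSG00000091971, chr17:34969190-34972156), the other copy, had counts of 5 (VS), 1 (VI), 11 (FS) and 5 (FI), which is at most 0.373 CPM and below the filter. All 4 of its intervals included 0, so that no difference was detectable at this depth. The coding sequences of both copies, 1923 bases for Hspa1a and 1926 for Hspa1b, differed at 8 aligned bases in GENCODE M21, and 47.1% of all 100-base windows of the Hspa1a transcript occur in the Hspa1b transcript. A gene on the opposite strand, Gm20481, spans 75.0% of Hspa1a, covers 19.0% of it with exons and has a count of 0 in every library. Reads of such copies and overlapping genes can be split or left out in counting, so the level of Hspa1a is uncertain, and that of Hspa1b holds only the reads assigned to it. With the counts of both genes summed, the number of genes beyond 2-fold was the same in all 4 comparisons.

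Hspa8 (ENSMUSG00000015656, chr9:40800984-40805200), the constitutive HSP70 that handles clients in unstressed cells, had 1153 (VS), 900.1 (VI), 703 (FS) and 749 CPM (FI). The vehicle libraries were both above the fibril libraries. The VI/VS log2 ratio was −0.36 (−0.38 to −0.33), that of FS/VS −0.71 (−0.74 to −0.69) and that of FI/VI −0.27 (−0.29 to −0.24). For FI/FS it was 0.09 (0.06 to 0.12), and 0.02 when libraries were scaled by total counts.

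Hsph1 (ENSMUSG00000029657, chr5:149614287-149636376) encodes HSP110, a nucleotide exchange factor of HSP70. It had 66.4 (VS), 34.2 (VI), 48.9 (FS) and 45.1 CPM (FI). The trained vehicle library was the low one here, with a log2 ratio of −0.95 (−1.08 to −0.83) against VS, while FI and FS differed by −0.12 (−0.23 to −0.004). FS was lower than VS by −0.44 (−0.54 to −0.34) and FI higher than VI by 0.40 (0.26 to 0.53), both on the log2 scale.

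The J-domain genes had the smallest spread of the cytosolic set. Dnaja1 (ENSMUSG00000028410, chr4:40722150-40737149), which delivers clients to HSP70, had 231 (VS), 174 (VI), 191 (FS) and 167 CPM (FI). Dnajb1 (ENSMUSG00000005483, chr8:83608175-83611902), the inducible HSP40 that also acts in disaggregation with HSP110, had 37.7 (VS), 30.9 (VI), 27.6 (FS) and 23.4 CPM (FI). Both were lower in the trained than in the sedentary library of either kind, with log2 ratios of −0.41 (−0.47 to −0.35) and −0.20 (−0.26 to −0.14) for Dnaja1 and −0.29 (−0.43 to −0.15) and −0.24 (−0.40 to −0.08) for Dnajb1, in vehicle and fibril livers. With fibrils, Dnajb1 was lower in both pairs, by −0.45 (−0.59 to −0.31) in sedentary and −0.40 (−0.56 to −0.24) in trained livers on the log2 scale. Dnaja1 was lower in FS than in VS (−0.27, −0.33 to −0.22), and its interval in FI/VI (−0.06, −0.12 to 0.01) included 0. Dnaja1 overlaps Gm6297 over 249 bases and Smu1 over 608 bases, both on the opposite strand, and reads from there can be assigned to either gene or to none.

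Both HSP90 genes were lower with IT in vehicle livers and higher with IT in fibril livers. Hsp90aa1 (ENSMUSG00000021270, chr12:110690605-110702728), the inducible form, had 192 (VS), 77.7 (VI), 124 (FS) and 174 CPM (FI). VI was far below the other libraries and FI came close to VS. With IT the log2 ratio was −1.30 (−1.38 to −1.23) in vehicle and 0.49 (0.42 to 0.55) in fibril livers. With fibrils it was −0.62 (−0.69 to −0.56) in sedentary and 1.16 (1.09 to 1.24) in trained livers, the latter being the 1 ratio of the 9 genes that was above 2-fold in any of the 4 comparisons. Hsp90ab1 (ENSMUSG00000023944, chr17:45567775-45573271), the constitutive form, had 957 (VS), 675 (VI), 582 (FS) and 782 CPM (FI). Its log2 ratios had the same signs and were smaller in 3 of the 4 comparisons: −0.50 (−0.53 to −0.48) with IT in vehicle and 0.43 (0.40 to 0.46) in fibril livers, and −0.72 (−0.75 to −0.69) with fibrils in sedentary and 0.21 (0.18 to 0.24) in trained livers.

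The mitochondrial pair, whose shared run of heat shock units is printed above, was lowest in FS. Hspd1 (ENSMUSG00000025980, chr1:55077835-55088243), the HSP60 barrel, had 574 (VS), 538 (VI), 402 (FS) and 492 CPM (FI). Hspe1 (ENSMUSG00000073676, chr1:55088132-55091307), its HSP10 lid, had 234 (VS), 181 (VI), 149 (FS) and 183 CPM (FI). The FS/VS log2 ratio was −0.51 (−0.55 to −0.48) for Hspd1 and −0.65 (−0.71 to −0.59) for Hspe1, and FI was higher than FS by 0.29 (0.25 to 0.33) and 0.30 (0.24 to 0.36). The VI/VS ratio was −0.09 (−0.13 to −0.06) for Hspd1 and −0.37 (−0.43 to −0.31) for Hspe1. Between FI and VI the ratio was −0.13 (−0.17 to −0.09) for Hspd1 and 0.02 (−0.04 to 0.08) for Hspe1, the latter −0.01 with libraries scaled by total counts. The 2 genes overlap over 112 bases on opposite strands, and the 6 Hspe1 and Dnaja1 pseudogenes listed under their symbols had at most 1 count in any library.

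Counted by size, since a pair of single libraries allows no test, 2 of the 9 genes differed by more than 2-fold in VI/VS, Hspa1b and Hsp90aa1, both lower. Over all 12180 genes, 3.44% differed that much between VI and VS (1.9% lower, 1.54% higher). For FI/FS Hspa1b was the 1 gene beyond 2-fold, against 4.28% of all genes (2.53% lower, 1.75% higher). It was also the 1 gene for FS/VS, against 5.8% (2.2% lower, 3.6% higher). For FI/VI Hspa1b was lower and Hsp90aa1 higher, against 4.54% (1.95% lower, 2.59% higher). Without regard to size, VI stood below VS for all 9 genes, as did 49.3% of all genes, and FS stood below VS for all 9, as did 48% of all genes. FI stood below FS for 4 of the 9 (49.8% of all genes) and below VI for 5 (48.7%). Hspa1b, Hsph1, Dnaja1 and Dnajb1 were lower with IT in both pairs, as were 29.8% of all genes. Medians of the log2 ratio over the 9 genes were −0.41 (VI/VS), 0.09 (FI/FS), −0.62 (FS/VS) and −0.06 (FI/VI), while the median of all 12180 genes was between 0.00 and 0.02.

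**Figure D3:**
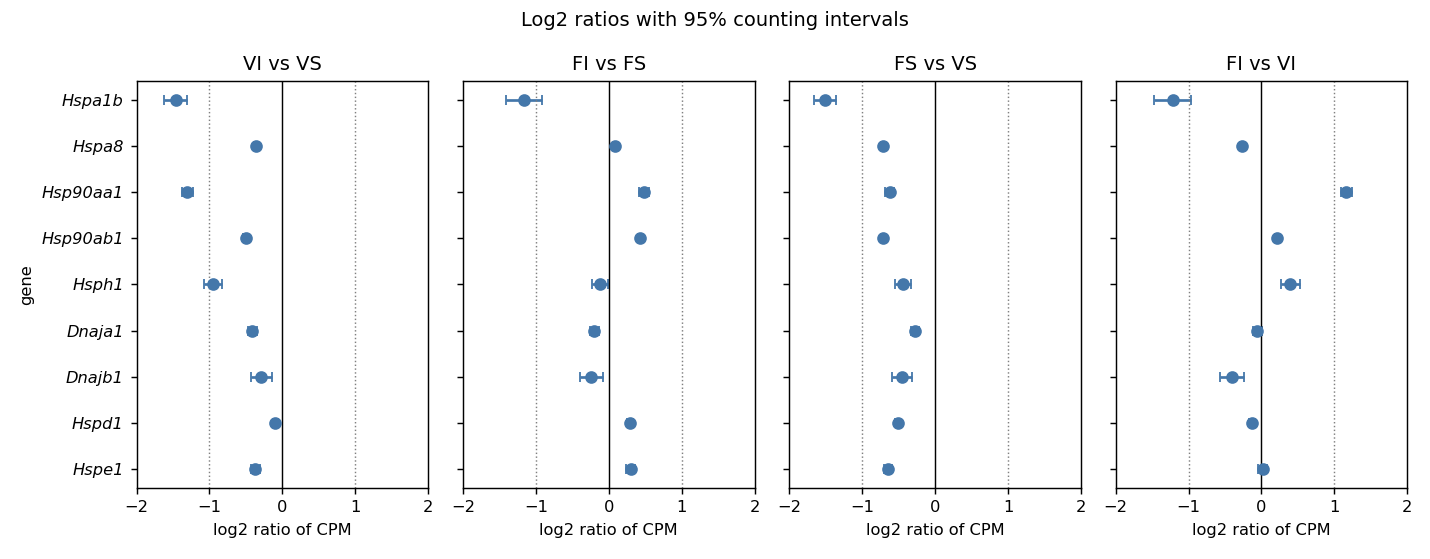
Log2 ratios of CPM (points) with 95% exact conditional binomial intervals for counting error, for the 9 genes with at least 1 CPM and the comparisons VI vs VS, FI vs FS, FS vs VS and FI vs VI; dotted lines mark a 2-fold difference. All points lie left of 0 in both comparisons against VS, and on both sides of 0 in FI vs FS and FI vs VI.

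The response to IT was compared between vehicle and fibril livers, 2 comparisons that share no library. For all 9 genes the log2 ratio with IT was higher in fibril than in vehicle livers, as it was for 48.8% of all 12180 genes. The counting interval of that difference lay above 0 for 8, all but Dnajb1, and for 18.7% of all genes. Such intervals are narrower for genes with many counts, as most of these 9 have. Hspa8, Hsp90aa1, Hsp90ab1, Hspd1 and Hspe1 were lower in VI/VS and higher in FI/FS, each beyond its counting interval, as were 3.57% of all genes, and 6.61% were opposite in either order. The difference was largest for Hsp90aa1, 1.79 (1.69 to 1.89), which ranked 65 from the highest of 12180 genes. It was 0.93 (0.89 to 0.97) for Hsp90ab1, 0.84 (0.67 to 1.005) for Hsph1 and 0.67 (0.59 to 0.75) for Hspe1. For Hspa8 it was 0.45 (0.41 to 0.49), for Hspd1 0.38 (0.33 to 0.43), for Hspa1b 0.30 (0.0009 to 0.59), for Dnaja1 0.21 (0.13 to 0.30) and for Dnajb1 0.05 (−0.16 to 0.26). Of all 12180 genes, 5.82% had a difference beyond 1 in either direction, and the median was −0.01. VS enters the difference of every gene as the reference of the vehicle pair, and without it the IT ratio of vehicle livers cannot be formed.

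**Figure D4:**
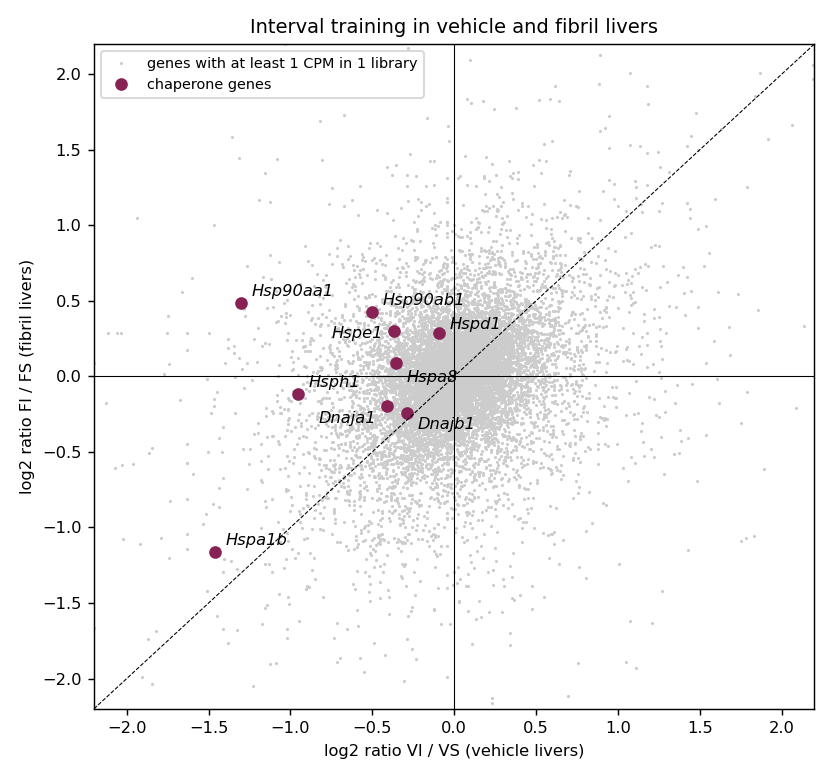
Log2 ratio VI / VS (x axis) against FI / FS (y axis) for the 9 chaperone genes (large points) and for the 12180 genes with at least 1 CPM in 1 library (grey, 86 of them outside the axes); the dashed line marks equal ratios. The chaperone genes lie left of 0 on the x axis and above the dashed line, with Hsp90aa1 farthest from it and Hspa1b low on both axes.

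A model with both factors can be tested if amyloidosis and IT are taken to add on the log scale, which leaves 1 residual degree of freedom, the interaction itself. In this model, Hspa1b fell with IT by 1.33 on the log2 scale (SE 0.14, adjusted p = 0.0070 by the quasi-likelihood test of edgeR, Benjamini-Hochberg over 11760 genes) and fell with amyloidosis by 1.38 (SE 0.14, adjusted p = 0.0045, same test), lower in both pairs of libraries each time. It was the only one of the 9 genes called for either term, where 1.34% of all genes were called for IT (0.663% lower) and 4.59% for amyloidosis (1.96% lower). The SE given is the absolute estimate divided by the square root of the test's F statistic. Both this SE and the p-values rest on 1 residual degree of freedom and on dispersion shared between genes. They do not measure the spread over mice, which were pooled. Unadjusted p-values of this test were below 0.05 for 3 of the 9 genes with IT (Hspa1b, Hsph1 and Dnaja1) and for 3 with amyloidosis (Hspa1b, Hspa8 and Dnajb1), shares of all genes being 14.5% and 21.1%. Hsp90aa1, whose sign differed between both pairs, had an estimate of −0.40 (SE 0.50, adjusted p = 0.79, same test) with IT. With 1 factor in the model at a time, Hspa1b was not called (adjusted p = 0.90 for IT and 0.50 for amyloidosis), in fits that called 0 and 8 of all genes. The study's qPCR in individual mice, given above, reports no such fall of Hspa1b with either factor.

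Other genes of the chaperone network were taken from lists fixed with earlier results of these data known. HSF1 itself was expressed at 17.2 (VS), 14.7 (VI), 15.5 (FS) and 17.2 CPM (FI), and its relative Hsf2 at 35.1, 31.9, 28.2 and 19.6 CPM in the same order. Both are transcript levels, and the activation of HSF1 is not measured by them. The HSP90 co-chaperones were the list most like the HSP90 genes in direction: of 17 expressed genes, 13 were below VS in VI, 15 above FS in FI, 14 below VS in FS and 14 above VI in FI, while 1 passed the 2-fold threshold, Fkbp5 in FI/VI. Stip1, which links HSP70 to HSP90, had 84.5 (VS), 44.5 (VI), 60.9 (FS) and 71.8 CPM (FI). Fkbp4, an immunophilin of steroid receptor complexes, had 208, 113, 112 and 125 CPM in that order. Ahsa1, the activator of the HSP90 ATPase, had 112, 74.4, 80.3 and 101 CPM. All 3 were highest in VS, like 11 of the 17 co-chaperones. Fkbp5, an immunophilin that glucocorticoids induce, was lowest in VS, with 100.2 (VS), 151 (VI), 187 (FS) and 368 CPM (FI), and it was the 1 co-chaperone called in the additive model, for IT (0.78, adjusted p = 0.038, where 0.672% of all genes rose) and for amyloidosis (1.09, adjusted p = 0.0081, same test, where 2.64% rose).

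Of the 6 expressed other HSP70 and HSP110 genes, 5 were above VS in VI, 4 above VS in FS, 3 above FS in FI and 4 above VI in FI, with medians of 0.27, 0.09, 0.04 and 0.29, and 1 passed 2-fold, Hspa13 in FS/VS at 1.55 (1.37 to 1.73). Hspa13 was also the 1 gene of this list called in the additive model, for amyloidosis (1.12, adjusted p = 0.036, quasi-likelihood test of edgeR, where 2.64% of all genes rose). Hspa4l, a close relative of Hsph1, had a pattern near that of the HSP90 genes, 19.4 (VS), 12.6 (VI), 14.2 (FS) and 21.3 CPM (FI). Hspa4, another HSP110, stayed between 79.8 CPM in VS and 94.5 CPM in VI. Of 15 other J-domain genes 11 had VI above VS, the opposite of Dnaja1 and Dnajb1, with a median log2 ratio of 0.13. Dnaja4, named after its values were seen, was the 1 of them beyond 2-fold, lower in VI/VS and higher in FI/VI, with 2.29 (VS), 1.11 (VI), 2.13 (FS) and 2.73 CPM (FI), and the additive model called 0 of the 15 for either term. The 8 nucleotide exchange and partner factors, among them St13 and Bag1, had none beyond 2-fold. Their medians lay between −0.14 and 0.26.

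Outside the HSP70 and HSP90 machinery, the 14 genes of the TRiC chaperonin and prefoldin, which fold actin and tubulin, had medians between −0.14 and 0.09 and none beyond 2-fold. The 14 other mitochondrial chaperones and proteases likewise had none beyond 2-fold. Of these, 11 were below VS in FS (median −0.21), 12 above FS in FI (0.15) and 12 below VI in FI (−0.08). In VI/VS 9 were higher (median 0.06). FS was the lowest library for 9 of the 14, as for Hspd1 and Hspe1. Hspa9, the mitochondrial HSP70, had 596 (VS), 667 (VI), 528 (FS) and 589 CPM (FI). In vehicle livers Hspa9 was higher with IT (0.16, 0.13 to 0.20), where Hspe1 and Hspd1 were lower. Like them, it was lower in FS/VS (−0.17) and higher in FI/FS (0.16). Of 6 expressed genes among the small heat shock proteins and Bag3, 4 had VI below VS, 2 of them beyond 2-fold, and 4 had FS below VS, 3 of them beyond 2-fold (Hspb1, Hspb7 and Cryab, the last 2 named after their values were seen). Their medians were −0.67 and −0.89, and 1 gene, Hspb1, was beyond 2-fold higher in FI/FS and in FI/VI. The sum of the skeletal muscle genes was also lower in VI and in FS than in VS, and its part in this list was not tested. Hspb1, a small heat shock protein that holds unfolded clients, had 13.7 (VS), 6.69 (VI), 4.81 (FS) and 22.2 CPM (FI). VI and FS were thus below VS and FI above FS, as for Hsp90aa1, with a larger step from FS to FI. For Hspb1 FI was also above VS, where Hsp90aa1 was below. The study's qPCR in livers of individual mice reports the opposite for VI and FS against VS, with Hspb1 mRNA about 2-fold higher in each. For FI that qPCR reports Hspb1 above VS, the same direction as here. The study's RNA-seq also reports Hspb1 higher in FI than in FS. For Cryab the qPCR reports no change with IT or amyloidosis. Bag3, an HSF1 target that links HSP70 to autophagy, had 18.4, 21.6, 21.3 and 17.2 CPM, and was higher in both VI and FS than in VS. The ER chaperones, many of which the unfolded protein response induces, mostly stood opposite to the cytosolic set in FS/VS. Of 16, 14 were higher and 10 were beyond 2-fold, all higher, with a median of 1.25 against −0.62 for the 9 chaperone genes. Serpinh1 was 1 of the 2 lower genes (−0.88). Like Hsp90aa1, it was also lower in VI/VS (−1.75) and higher in FI/FS (0.40) and FI/VI (1.27). In the additive model 12 of the 16 rose with amyloidosis and 0 were called for IT (same test). Hspa5, the HSP70 of the ER lumen, had 308 (VS), 430.3 (VI), 1161 (FS) and 823 CPM (FI), and Hsp90b1, the HSP90 of the ER, 229, 254, 526 and 485 CPM.

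**Figure D5:**
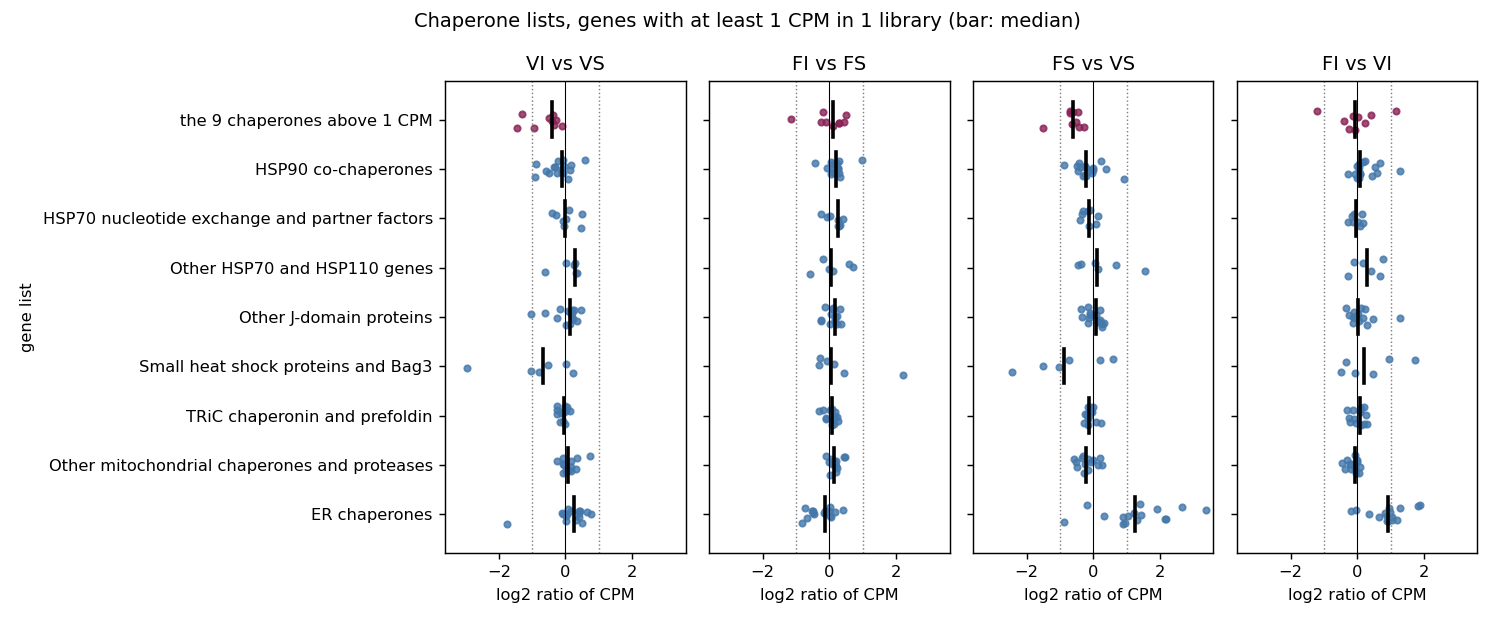
Log2 ratios of CPM for the 9 chaperone genes (top) and for 8 lists of related genes, 1 point per gene with at least 1 CPM in 1 library, and a bar at each list's median; dotted lines mark a 2-fold difference. In FS vs VS the ER chaperones lie mostly to the right with a median of 1.25 and the 9 chaperone genes to the left with a median of −0.62. The TRiC and mitochondrial lists lie nearer 0, with medians of −0.14 and −0.21.

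Genes that respond to handling, time of day and temperature were set beside these levels. Of 14 expressed immediate early genes, 13 had FS above VS, with a median log2 ratio of 0.85 and sums of 360 (VS), 360 (VI), 534 (FS) and 524 CPM (FI) over the list. Fos had 1.23 (VS), 1.23 (VI), 4.00 (FS) and 5.83 CPM (FI). In the additive model 5 of the 14 rose with amyloidosis, Fos among them, and 0 were called for IT (same test). Clock genes differed between the libraries: Arntl had 1.44 (VS), 6.65 (VI), 1.12 (FS) and 4.71 CPM (FI), and Nr1d1 30.02, 7.10, 49.0 and 7.19 CPM. Both differed with IT in the same direction in both pairs, as Hspa1b, Hsph1, Dnaja1 and Dnajb1 did. Per2, a repressor of the clock, had 53.0, 29.5, 24.6 and 26.6 CPM, with VS highest, as for 5 of the 15 expressed clock genes. Of the cold-inducible RNA-binding proteins, Cirbp had 34.2, 38.8, 28.5 and 31.6 CPM and Rbm3 34.4, 48.0, 44.9 and 40.7 CPM. The part of these responses in the chaperone levels was not tested.

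Across the 4 libraries, the genes with a level most like the median pattern of the 10 genes, by Euclidean distance of centred log2 CPM among 9340 genes with at least 5 CPM in 1 library, were Zmynd8 (distance 0.078), Pgpep1, Chdh, Pank4 and Mipep (distance 0.097). For Hspa1b they were Mup2 (distance 0.30), G0s2 (0.35), Serpinb1a, Nat8 and Rnf186 (0.60). G0s2, an inhibitor of adipose triglyceride lipase, had 117 (VS), 35.1 (VI), 29.6 (FS) and 16.7 CPM (FI). Mup2 belongs to a family of near-identical genes, and its counts are uncertain for that reason. For Hspa8 they were Elk3 (distance 0.051), Tmem25, Pcsk6, Adcy6 and Ccs (0.060). None of these 15 genes is in the chaperone lists used here, and over 4 libraries such likeness is a description only.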

How the data were processed

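Liver tissue was pooled by group (4 mice each) in TRIzol and total RNA was sequenced on an Illumina platform. The authors deposited read counts per gene without normalization, and FPKM values that they made from these counts, gene lengths and total counts. The labels list fastp 0.23.2, STAR 2.5, HTSeq 0.6.1 and build mm10. For 8 of the 10 genes start and end equal those of GENCODE M21, the annotation release of the deposited tables being not given.

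R 4.3.3 with edgeR 4.0.16 was used for the counts. Log2 ratios of TMM-scaled CPM used a prior of 0.5 counts, and genes that reached 1 CPM in 1 library or more entered. The difference between both IT ratios has an exact conditional odds-ratio interval. With 1 library per group these values have no test and were counted beyond 2-fold. The additive model (~ amyloidosis + exercise, robust quasi-likelihood) used 11760 genes that reached 1 CPM in 2 libraries or more and was tested on simulated data. DESeq2 1.42.0 and limma 3.58.1 served as alternatives, Biopython 1.88 aligned sequences and matplotlib 3.10.9 drew figures. A count of 0 allows up to 3 counts, 0.102 to 0.127 CPM by library. Genes named were all 10, genes fixed by name in each list, the ends of list ranges and the 5 nearest patterns; a few list members that passed a threshold were named after their values were seen. The genes and lists were chosen with earlier results of these data known.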

Additional observations from a re-analysis of the deposited data

Results flagged for a closer look

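For 5 of the 10 genes, VI was below VS and FI above FS, each beyond its counting interval, as for 3.57% of the 12180 expressed genes (6.61% in either order). FI/FS minus VI/VS, on the log2 scale, was 1.79 for Hsp90aa1, 0.93 for Hsp90ab1, 0.67 for Hspe1, 0.45 for Hspa8 and 0.38 for Hspd1. With 1 pooled library per group the difference was not tested over mice. The FI/FS ratio of Hspa8 was the smallest of the 5, 0.09, and 0.02 when libraries were scaled by total counts. VS, the reference in vehicle livers, was also the library with 78.5 CPM of skeletal muscle transcripts, and their part in these values was not tested.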

How the results depend on the processing

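No paired analysis was possible because each group has 1 library, and leaving out a library leaves the additive model no residual degree of freedom. Under scaling by DESeq2 size factors or total counts and under FPKM with a pseudocount of 1, the 36 log2 ratios of the 9 expressed genes moved by at most 0.22. Of 108 alternative values 2 changed sign, both for Hspe1 in FI versus VI. A further 14 kept their sign but lay outside the counting interval of the main ratio. Among them were the FI versus FS ratios of Hspa8, Hsp90aa1, Hsp90ab1, Dnaja1, Hspd1 and Hspe1, with total counts and with FPKM. For the 10 main counts and medians, 65 of 78 alternative values stayed within 1.5 times the count or, for a median, closer to it than the typical counting error of the 9 ratios. With a pseudocount of 1 on FPKM, the number of genes beyond 2-fold was 0 in FI versus FS and 1 in FI versus VI. A threshold of 1.5-fold gave 5 genes in FS versus VS. The median ratio in FI versus FS was 0.0203 with total counts, 0.0202 with an FPKM pseudocount of 1, 0.0203 with one of 0.1, and −0.0135 with no filter on low counts, which adds Hspa1a. In the additive model, no filter gave 2 genes for IT (Hspa1b and Hsph1) and 3 for amyloidosis (Hspa1b, Hspa8 and Dnajb1), 1 factor alone gave 0 and 0, and an unadjusted p below 0.05, added after seeing the data, gave 3 and 3. Hspa1b was called in 7 of 8 alternatives for each term, with adjusted p between 3.8e-16 and 0.015 for IT and between 1.3e-17 and 0.0088 for amyloidosis in those 7. Over all genes, the additive model called 157 for IT and 540 for amyloidosis. For IT this became 241 with DESeq2 size factors, 274 with total counts, 740 with no filter, 91 with a filter at 5 CPM and 0 with IT alone, and for amyloidosis 1519 with no filter and 8 with amyloidosis alone. The causes of these differences were not tested.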
